A study of Mus musculus with 22 samples.

Results

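A set of 10 genes that mark visceral endoderm and its derivative in the yolk sac was followed through 22 RNA-seq pools of whole mouse embryos in which Oct4 or Nanog could be switched on with doxycycline. The 10 genes, of 37680 gene IDs counted, were taken by symbol. They are the apolipoprotein genes Apoa1, Apoc2 and Apoe, the secreted carrier genes Afp, Ttr and Rbp4, the transcription factor gene Hnf4a, and the endocytic receptor genes Lrp2, Cubn and Amn. Each symbol matched 1 gene ID, and the rule uses no measured value. All pools were of C57BL/6 background and were heterozygous for a ROSA26 transgene and an inducible transgene (ROSA26tg/+; Oct4tg/+ or ROSA26tg/+; Nanogtg/+), controls included, so by design the groups of a line and stage differ by doxycycline. The 8 groups were Oct4 E7.5 induced (n = 3) and control (n = 3), Nanog E7.5 induced (n = 3) and control (n = 2), Oct4 E9.5 induced (n = 3) and control (n = 3), and Nanog E9.5 induced (n = 3) and control (n = 2). For the E7.5 induced pools, pregnant females were injected with doxycycline at E4.5 and then drank it until collection. For the E9.5 induced pools they drank it from E6.5. An E7.5 pool held 8 to 12 embryos and an E9.5 pool 3, so n counts pools. Nothing in the labels says which extraembryonic membranes were kept with the embryos, and p-values measure only the spread between these pools.

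Visceral endoderm is the outer epithelium of the early mouse conceptus. It surrounds the epiblast and the extraembryonic ectoderm, and most of it becomes the endoderm layer of the visceral yolk sac, which feeds the embryo before the placenta works. Its cells take up maternal proteins through a complex of megalin (Lrp2), cubilin (Cubn) and amnionless (Amn). They package lipid on apolipoproteins and secrete carriers for retinol, thyroid hormone and other cargo into the embryo, much as liver does later. Hnf4a, a nuclear receptor, is a main activator of this programme, and HNF1 and GATA factors take part in it.

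The start regions of 4 of the genes are shown because they hold motifs of that programme or of the basal promoter, or, for Lrp2, because that gene gave the most stable induction result. Each is the 250 bases before a RefSeq transcription start of GRCm38.p6, 5′ to 3′ on the gene's strand, with motif letters in capitals.
Hnf4a (plus strand, chr2:163546905-163547154): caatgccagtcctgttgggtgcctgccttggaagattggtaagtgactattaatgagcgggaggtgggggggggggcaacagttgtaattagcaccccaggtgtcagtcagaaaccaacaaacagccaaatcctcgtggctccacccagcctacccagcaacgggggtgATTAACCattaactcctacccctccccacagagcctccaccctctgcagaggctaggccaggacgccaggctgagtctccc
Afp (plus strand, chr5:90490464-90490713): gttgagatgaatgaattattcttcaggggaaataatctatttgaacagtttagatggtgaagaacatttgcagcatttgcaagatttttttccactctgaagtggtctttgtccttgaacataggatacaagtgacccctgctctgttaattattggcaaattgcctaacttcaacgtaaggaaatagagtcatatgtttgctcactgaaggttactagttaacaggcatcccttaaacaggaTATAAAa
Rbp4 (minus strand, chr19:38124812-38125061): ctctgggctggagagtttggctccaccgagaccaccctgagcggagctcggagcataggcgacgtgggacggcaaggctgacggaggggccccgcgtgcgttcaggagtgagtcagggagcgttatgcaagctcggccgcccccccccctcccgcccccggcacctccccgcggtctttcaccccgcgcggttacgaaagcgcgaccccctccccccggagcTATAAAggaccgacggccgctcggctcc
Lrp2 (minus strand, chr2:69586030-69586279): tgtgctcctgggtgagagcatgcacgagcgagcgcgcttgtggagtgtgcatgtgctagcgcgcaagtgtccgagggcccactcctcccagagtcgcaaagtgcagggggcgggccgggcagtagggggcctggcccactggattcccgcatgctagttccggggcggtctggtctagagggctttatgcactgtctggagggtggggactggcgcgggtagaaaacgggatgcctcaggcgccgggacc
The 4 motifs were searched by exact letters on both strands in 300-base RefSeq windows that run on 50 bases past the start. Windows were at hand for 9 of the 10 genes, 13 windows in all, since some genes have several starts. The core HNF1 motif GGTTAAT was found once, as ATTAACC in the window of the downstream Hnf4a start with its first base at position -81, and 1.81% of all 32851 windows hold it. A TATA box (TATAAA) began at position -7 of the Afp window and at position -28 of an Rbp4 window, and a window of Apoe held it in both orientations, overlapping, from position -100. Of all windows, 13.6% hold that motif. Neither the HNF4 motif CAAAGTCCA (0.475% of all windows) nor the GATA motif AGATAAG (3.04%) was present in a window of these genes. The Lrp2 window, with 66.4% G and C, held none of the 4. A match of letters is a description of these windows and not a bound factor.

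Library totals ran from 4716147 to 42323659 expected counts. A gene with no reads in a library could still be present at up to 3 counts there, which on the counts-per-million scale (CPM) is 0.0709 to 0.636 depending on the library. The induced gene checked the labels. Pou5f1, which encodes Oct4, was at 477 to 606 CPM in Oct4 E7.5 induced pools and 203 to 242 CPM in their controls, and at 257 to 283 CPM in Oct4 E9.5 induced pools and 0.423 to 1.29 CPM in theirs. Nanog was at 53.9 to 117 CPM in Nanog E7.5 induced pools and 17.2 to 22.8 CPM in controls, and at 348 to 354 CPM in Nanog E9.5 induced pools and 2.06 to 2.35 CPM in controls. Among the E7.5 libraries, the Nanog induced ones stood apart. Gene models shorter than 80 nucleotides summed to 0.575 to 1.13 CPM in the 3 Nanog E7.5 induced pools, against 31.3 to 36.8 CPM in their 2 controls and 29.0 to 51.9 CPM in the 6 Oct4 E7.5 pools. Mitochondrially encoded genes took 5.27% to 8.26% of counts in Nanog E7.5 induced pools and 3.30% to 3.63% in their controls. All E9.5 pools had 0.634 to 2.02 CPM of short models and mitochondrial shares of 2.23% to 2.88%. The labels name 2 sequencers without assigning them to libraries. In Nanog E7.5 the induction and this library difference therefore cannot be told apart.

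At E7.5 all 10 genes were abundant in every pool, the lowest value being Hnf4a at 37.5 CPM. Per kilobase of exon, a scale on which genes can be compared, Apoe led in the Oct4 E7.5 controls with 674 ± 78.7 CPM per kb (SD, n = 3), followed by Apoa1 with 569 ± 64.0 and Apoc2 with 501 ± 16.7. Rbp4 followed with 357 ± 34.6 CPM per kb and Ttr with 319 ± 34.8. Afp stood at 133 ± 16.9 CPM per kb and Amn at 119 ± 9.26. Cubn (77.0 ± 12.8 CPM per kb), Hnf4a (20.3 ± 2.11) and Lrp2 (14.3 ± 1.29) were the lowest of the 10. Within that order Apoe and Apoa1, Apoa1 and Apoc2, Rbp4 and Ttr, and Afp and Amn lay closer together than the sum of their SDs. Among the 8 groups, the Oct4 E7.5 controls had the highest mean for 8 genes, the exceptions being Lrp2 (Nanog E7.5 controls) and Amn (Oct4 E7.5 induced). For all 10 genes the Nanog E7.5 induced pools were the lowest of the E7.5 groups and above every E9.5 group, and only for Lrp2 did they overlap an E9.5 group.

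**Figure D1:**
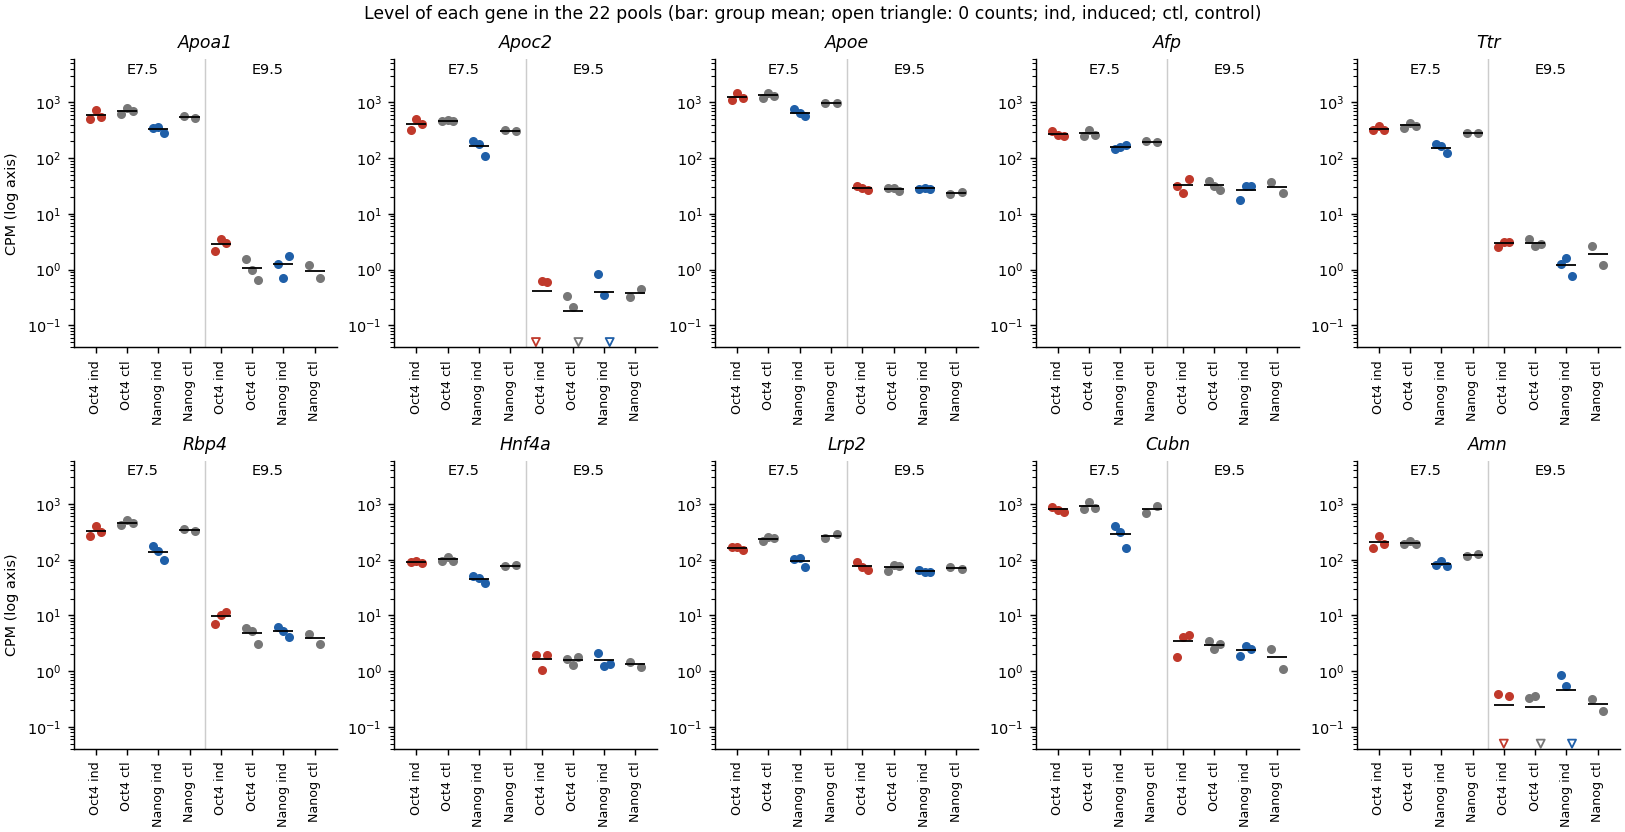
Level of each of the 10 genes in all 22 pools, as CPM on a log axis; points are pools, bars are group means and open triangles mark pools with 0 counts. The gap between E7.5 and E9.5 pools is smallest for Lrp2 and then Afp, and the 3 Nanog E7.5 induced pools lie below their controls in every panel.

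Nanog induction from E4.5 to E7.5 went with lower levels of this gene set. Of the 10 genes 7 fell (edgeR's quasi-likelihood test, Benjamini-Hochberg adjusted p under 0.05 over all 14118 genes tested), none rose, and 4.82% of all genes tested fell. All 10 were lower without overlap between groups, a separation in that direction that 27.7% of all genes showed. The median log2 fold change of the 10 was -0.78, beside 0.00344 over all genes. Their summed level was 2437, 2191 and 1702 CPM in induced pools, against 3850 and 4054 CPM in controls. In pools of whole embryos fewer visceral endoderm cells and less RNA per cell cannot be told apart.

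Among the uptake receptors, Lrp2, the large scavenger receptor megalin, had the lowest adjusted p of the 10. It was at 104, 106 and 73.5 CPM in Nanog E7.5 induced pools and 245 and 289 CPM in controls. Every induced pool lay below both controls, by a log2 fold change of -1.45 ± 0.16 (SE; adjusted p = 0.00395). It passed the test without any 1 of the 5 pools, with an adjusted p of at most 0.0351. Cubn, the receptor that binds vitamin B12 with its carrier and other ligands, had 402, 308 and 161 CPM in induced pools, against 703 and 938 CPM in controls. Its log2 fold change was the same size, -1.45, but its SE was 0.45, since both groups were spread widely, and the adjusted p was 0.179. Amn, the membrane anchor of cubilin, fell with a smaller change. It was at 78.9, 96.0 and 76.2 CPM in induced pools and 117 and 128 CPM in controls, a log2 fold change of -0.49 ± 0.12 (adjusted p = 0.0348).

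Rbp4, the retinol carrier of plasma, fell most among the secreted carriers. It measured 175, 144 and 101 CPM in Nanog E7.5 induced pools, against 352 and 333 CPM in controls (log2 fold change -1.24 ± 0.22, adjusted p = 0.0295). Ttr, which carries thyroid hormone and the retinol complex, measured 177, 165 and 122 CPM in induced pools, against 278 and 284 CPM in controls (-0.81 ± 0.14, adjusted p = 0.0158). In both genes each induced pool lay clearly below both controls. Afp, the fetal relative of albumin and the classical yolk sac secretion product, moved least of the 10. It measured 144, 156 and 174 CPM in induced pools, against 199 and 192 CPM in controls, a log2 fold change of -0.26 ± 0.10 that did not pass the test (adjusted p = 0.156). The ratio of Rbp4 to Afp ran from 0.581 to 1.22 in induced pools and from 1.73 to 1.77 in controls.

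The lipid carriers differed among themselves in spread rather than in direction. Apoa1, the main protein of high-density lipoprotein, was at 344, 357 and 287 CPM in Nanog E7.5 induced pools and 576 and 521 CPM in controls (log2 fold change -0.69 ± 0.11, adjusted p = 0.00771). Apoe, a ligand through which lipoprotein remnants are taken up, was at 756, 637 and 563 CPM in induced pools and 982 and 985 CPM in controls (-0.55 ± 0.12, adjusted p = 0.0246). Apoc2, the cofactor of lipoprotein lipase, was at 205, 176 and 108 CPM in induced pools and 322 and 305 CPM in controls. Its log2 fold change of -0.89 ± 0.28 did not pass (adjusted p = 0.148). The Apoc2 gene model overlaps Apoc4 on the same strand and 77.3% of its values are whole numbers, so some of its reads were divided between models. The values that were not whole lay in Oct4 E7.5 pools, and those of the Nanog E7.5 pools were all whole. Apoc4 itself reached at most 0.659 CPM. Hnf4a, the regulator, fell too, with 50.9, 46.2 and 37.5 CPM in induced pools and 77.1 and 79.7 CPM in controls (-0.75 ± 0.13, adjusted p = 0.00909).

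Induced pool 4 (the pools are numbered 1, 3 and 4) had the lowest value of the 3 for 9 of the 10 genes, Afp being the exception, and it also had the highest mitochondrial share. Most of the 7 calls rested on having both controls, as did most calls over all genes tested. With control pool 2 or control pool 3 left out, the lone control has to be assumed to vary like the induced pools. Over the 5 fits without a pool, the log2 fold change ran from -1.56 to -1.31 for Lrp2 and from -0.33 to -0.18 for Afp. With each induced pool left out in turn, 5 to 8 of the genes passed, beside 534 to 707 called lower of the 13723 to 14125 genes tested. Set against the 3 Oct4 E7.5 control pools instead, all 10 passed, beside 1891 of 15777 genes called lower. The mean of those pools was above that of the Nanog line's own controls for 9 of the 10 genes. Leaving the short gene models and mitochondrial genes out of the table left 7 calls, but that cannot show whether the library difference reaches the 10 genes.

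**Figure D2:**
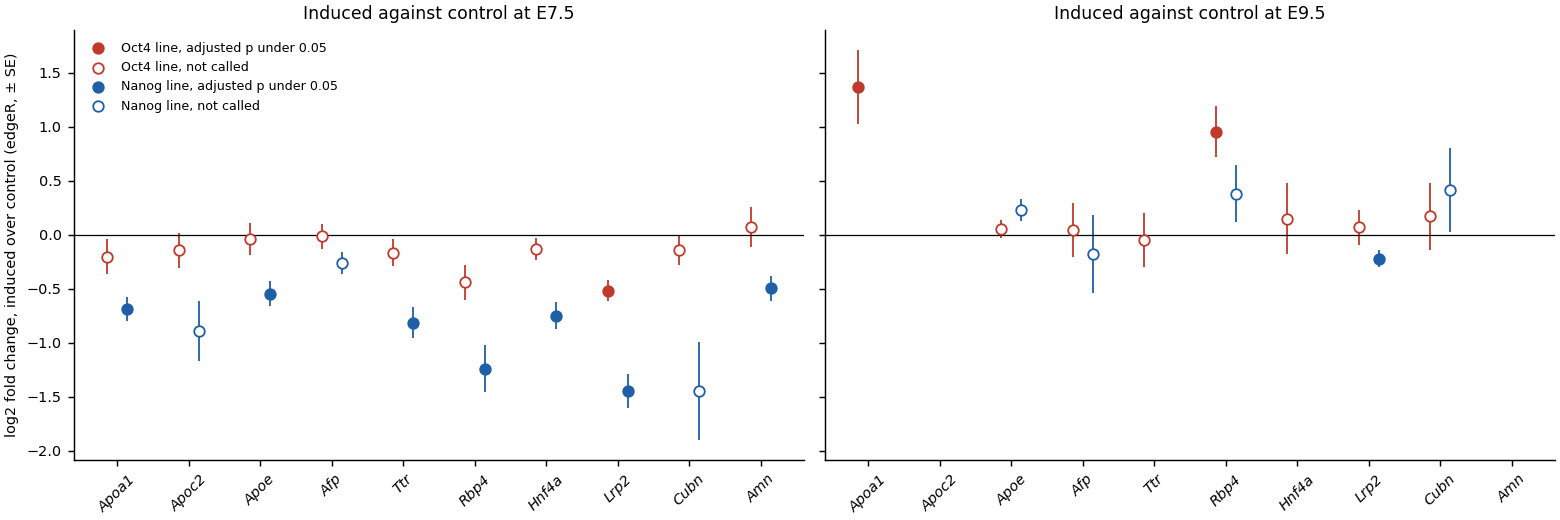
Log2 fold change of induced over control pools for the 10 genes at E7.5 (left) and E9.5 (right), with SE bars; filled symbols passed an adjusted p of 0.05 and genes without a symbol were too low to be tested in that comparison. At E7.5 all Nanog values lie below 0 and below the Oct4 value of the same gene, and at E9.5 the called genes are Apoa1 and Rbp4 in the Oct4 line and Lrp2 in the Nanog line.

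**Figure D3:**
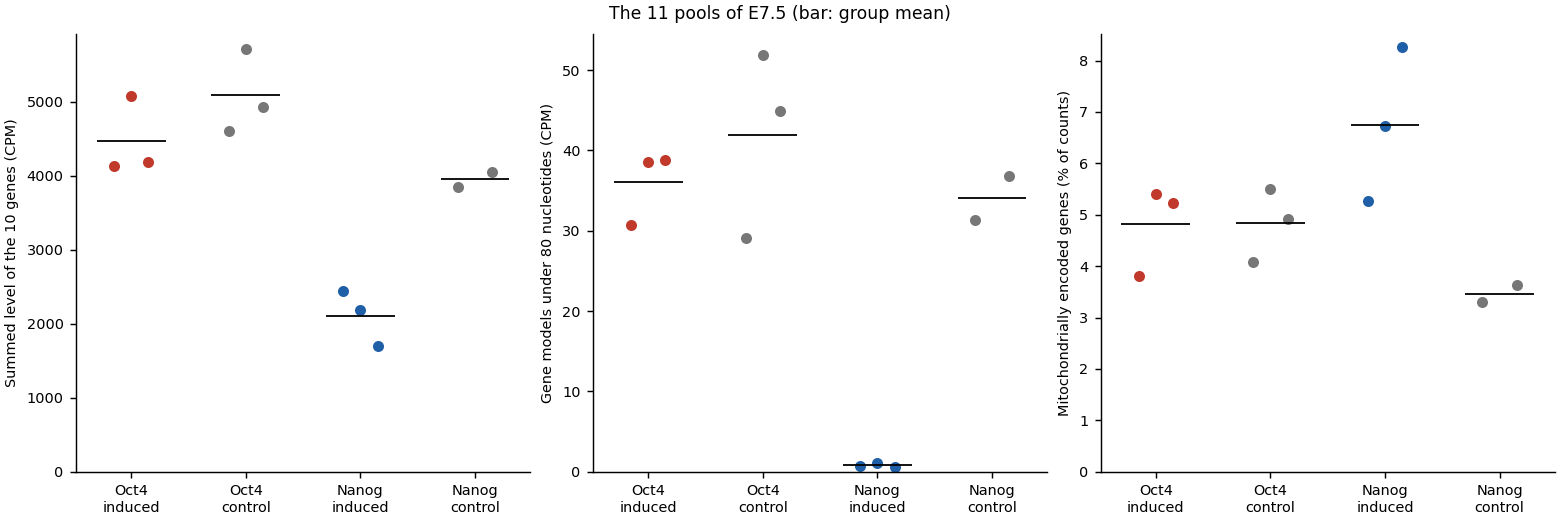
The 11 pools of E7.5 by group, with the summed level of the 10 genes in CPM (left), the summed level of gene models under 80 nucleotides in CPM (middle) and the share of mitochondrially encoded counts in percent (right); points are pools and bars group means. The 3 Nanog induced pools are the lowest in the left and middle panels, with 1702 to 2437 CPM for the 10 genes against 3850 to 4054 CPM in their controls, and lie above their controls in the right panel.

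With the pools taken as unpaired, most of the set stayed within the spread of the pools after Oct4 induction over the same days. The summed level of the 10 genes was 4135, 5077 and 4193 CPM in Oct4 E7.5 induced pools and 4610, 5712 and 4934 CPM in controls, ranges that overlap. Each induced pool was nevertheless below the control pool of the same number. The labels do not say whether these numbers pair the pools. Of the 10 genes 1 fell and none rose (edgeR), beside 3.91% and 2.25% of all 16071 genes tested. The median log2 fold change of the 10 was -0.14, beside 0.0158 over all genes.

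The gene that fell was again Lrp2. It was at 167, 171 and 151 CPM in Oct4 E7.5 induced pools and 217, 260 and 241 CPM in controls. No induced pool reached the lowest control, and the log2 fold change was -0.52 ± 0.10 (adjusted p = 0.0175). The call was lost without induced pool 3 (adjusted p = 0.0871), control pool 2 (0.0595) or control pool 3 (0.0818) in the same edgeR test. Rbp4, at 271, 407 and 319 CPM in induced pools and 428, 514 and 447 CPM in controls, was separated as well (-0.44 ± 0.16) but did not pass (adjusted p = 0.184). It passed in edgeR with induced pool 2 left out (-0.64, adjusted p = 0.0121). Rbp4 also passed, beside Lrp2, in a fit with the replicate number as a block. Hnf4a was the only other gene without overlap, at 90.5, 94.4 and 87.1 CPM in induced pools and 95.2, 114 and 96.1 CPM in controls (-0.13 ± 0.10, adjusted p = 0.601). A downward separation of this kind was present in 14.3% of all genes. Log2 fold changes of the other 7 genes lay between -0.20 (Apoa1) and 0.07 (Amn), with SEs of 0.12 to 0.18.

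The difference between the responses, Nanog minus Oct4 at E7.5, was negative for all 10 genes, with a median of -0.62 on the log2 scale beside -0.00192 over all genes. It ran from -0.23 ± 0.17 for Afp to -1.29 ± 0.43 for Cubn, with -0.92 ± 0.20 for Lrp2 and -0.61 ± 0.17 for Hnf4a. None of the 10 passed in edgeR (adjusted p 0.116 for Lrp2 and 0.232 for Hnf4a), beside 0.204% of 16680 genes tested. An unadjusted p under 0.05 was reached by 6 of the 10, beside 1696 of all genes tested. DESeq2 called Lrp2 and Hnf4a, beside 244 of 16666 genes. The library difference described above falls within the Nanog groups and so enters these values as well, and its part in them was not tested.

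The genes varied together to different degrees across the 11 E7.5 pools, which share their libraries and depth. The ratio of Ttr to Hnf4a was the steadiest of the 45 pairs, running from 3.24 to 4.03 (SD of the log2 ratio 0.091). The ratio of Apoa1 to Apoe was nearly as steady, running from 0.449 to 0.587 (SD 0.122). At the other end the ratio of Afp to Cubn ran from 0.205 to 1.08 (SD 0.613).

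Other genes of the same tissue gave the background for Nanog E7.5. Of 39 genes in 5 companion lists (lipoprotein assembly, serum proteins, endocytosis and uptake, endoderm transcription factors, and anterior visceral endoderm), 35 were tested, 12 fell and 4 rose, beside 4.82% and 2.96% of all genes. In Oct4 E7.5 the same 35 genes gave 1 that fell and 3 that rose. Among the lipoprotein genes 2 of 9 fell in Nanog E7.5, namely Apoa4 (61.4 ± 12.3 CPM in induced pools and 115 ± 2.42 CPM in controls; log2 fold change -0.85, adjusted p = 0.0196) and Apoa2 (9.13 ± 3.05 and 19.1 ± 0.291 CPM; -1.02, adjusted p = 0.0367). The other 7 had values from -1.23 (Apoc3) to -0.05 (Apoc1), and the list median was -0.85. Apoc1 lies beside Apoe on chromosome 7 and had nearly the same level in both groups, 14.5 CPM in induced pools and 15.4 CPM in controls (adjusted p = 0.905).

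All 3 fibrinogen genes, whose products are clotting proteins of plasma, fell. Fga was at 6.22 ± 1.76 CPM in Nanog E7.5 induced pools and 16.3 ± 0.621 CPM in controls (log2 fold change -1.34, adjusted p = 0.0115). Fgg (-1.03) and Fgb (-0.99) fell as well, so that 3 of the 5 serum protein genes tested were lower. In the uptake list 3 of 8 fell and 1 rose. Pdzk1, a scaffold protein of brush borders, fell to 16.3 ± 5.87 CPM in induced pools, against 57.3 ± 2.78 CPM in controls (-1.74, adjusted p = 0.0255), and Clcn5, an endosomal chloride transporter, changed by -0.55. Of the 9 endoderm transcription factors 4 fell in Nanog E7.5, among them Foxa1 (6.87 ± 1.24 CPM in induced pools and 13.8 ± 3.83 CPM in controls; -0.97, adjusted p = 0.0447) and Gata6 (-0.50), while Gata4 (-0.10), Sox17 (-0.04) and Foxa2 (0.60, adjusted p = 0.0532) did not pass. None of the 9 passed in Oct4 E7.5.

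Genes of the anterior visceral endoderm, a signalling region of the same epithelium, moved the other way. Of 4 genes 3 rose in Nanog E7.5 and the same 3 rose in Oct4 E7.5. Cer1, a secreted Nodal and BMP antagonist, was at 83.6 ± 15.5 CPM in Nanog E7.5 induced pools and 37.7 ± 5.65 CPM in controls (log2 fold change 1.19, adjusted p = 0.00982). In Oct4 E7.5 it was at 53.4 ± 10.7 CPM in induced pools and 24.4 ± 3.45 CPM in controls (adjusted p = 0.00225). Lefty1, a Nodal antagonist, rose by a log2 fold change of 4.20 ± 0.93 in the Nanog line and 4.29 ± 0.63 in the Oct4 line. In edgeR its adjusted p was 0.041 and 0.00738. It was at 5.11 ± 3.71 CPM in Nanog E7.5 induced pools and 0.314 ± 0.208 CPM in controls. In Oct4 E7.5 it was at 6.71 ± 2.45 and 0.340 ± 0.360 CPM, so both sizes depend on low control levels. Dkk1, a Wnt antagonist, rose by 0.79 and 0.45 in the Nanog and Oct4 lines. In Oct4 E7.5 the call was kept in 6 of 6 fits without a pool for Cer1, in 4 for Lefty1 and in 1 for Dkk1. These genes are also expressed outside visceral endoderm at this stage. Of the companion genes named here as called in Nanog E7.5, Cer1 passed in 4 of 5 fits without a pool and the others in 3 or fewer.

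Markers of other cells in the pools moved as well. In Nanog E7.5, trophoblast and extraembryonic ectoderm genes summed to 423 to 607 CPM in induced pools and 267 to 372 CPM in controls, with 1 of 6 tested genes called, the trophoblast factor Elf5 (73.9 ± 14.3 and 27.4 ± 5.20 CPM; log2 fold change 1.47, adjusted p = 0.00671). Parietal endoderm genes summed to 926 to 1159 CPM in induced pools and 1174 to 1555 CPM in controls (2 of 8 lower, Plat and Lamb1). Decidua and maternal blood genes summed to 58.1 to 240 CPM in induced pools and 80.6 to 117 CPM in controls (0 of 4 called). Gut tube and liver bud genes summed to at most 13.9 CPM in induced pools and at most 13.4 CPM in controls (0 of 4 called). Embryonic red cell genes, made in the blood islands of the yolk sac, summed to 8.00 to 16.8 CPM in induced pools and 64.6 to 99.3 CPM in controls (3 of 5 lower). In these lists no gene was at 0 in all pools of either Nanog E7.5 group. In Oct4 E7.5 the red cell genes were as low, 6.61 to 12.3 CPM in induced pools and 76.3 to 131 CPM in controls (5 of 5 lower), beside visceral endoderm genes that mostly did not pass. There the trophoblast list summed to 168 to 252 CPM in induced pools and 268 to 324 CPM in controls (1 of 6 lower, Hand1). The part of these cells in the results above was not tested.

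**Figure D4:**
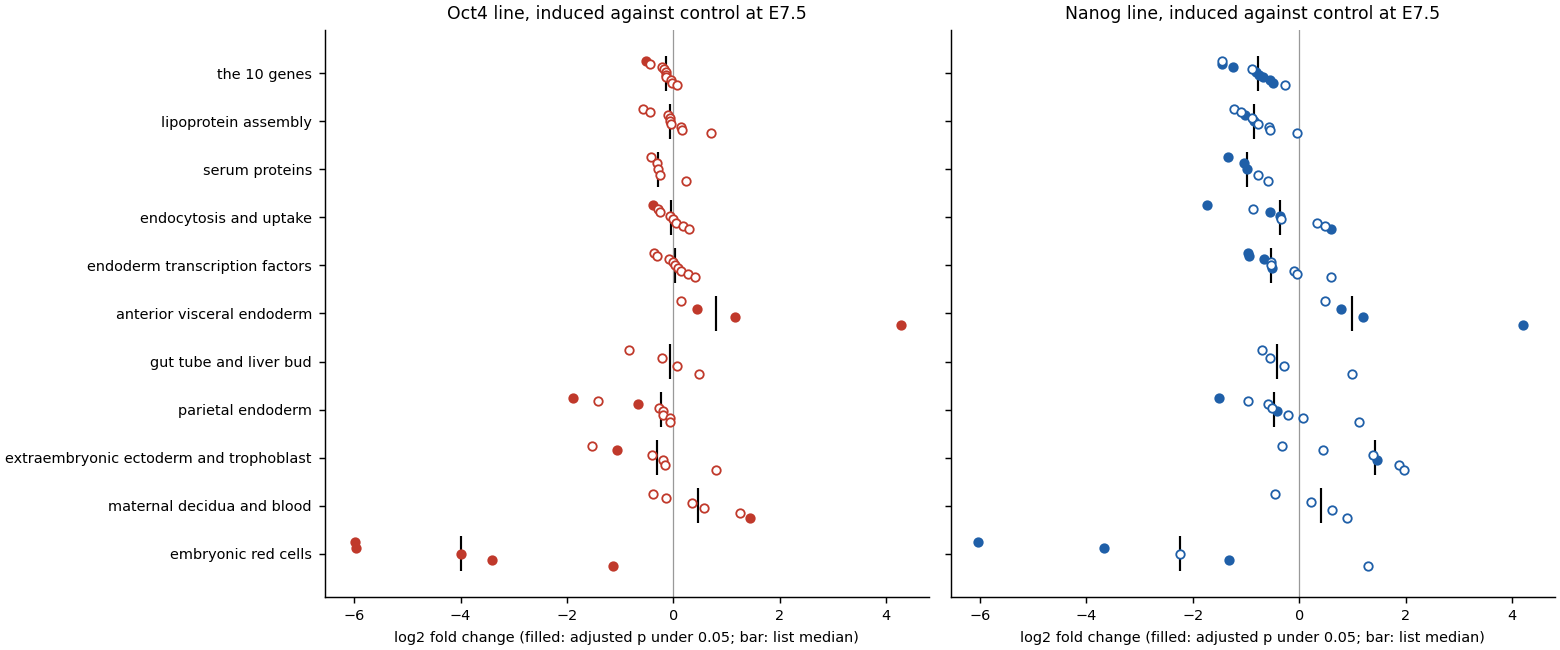
Log2 fold change of induced over control pools at E7.5 for the 10 genes and for each companion list, in the Oct4 line (left) and the Nanog line (right); each point is a gene, filled where the adjusted p was under 0.05, and bars are list medians. In the Nanog line the medians of the 10 genes (-0.78), lipoprotein assembly (-0.85) and serum proteins (-0.99) lie below 0. So do those of embryonic red cells (-2.24), endoderm transcription factors (-0.52), parietal endoderm (-0.47), gut tube and liver bud (-0.42) and uptake (-0.36). Trophoblast (1.43) and decidua and maternal blood (0.42) lie above 0 there. The anterior visceral endoderm median lies above 0 in both lines.

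At E9.5 the levels were far lower. Lrp2 (59.8 to 90.5 CPM over all E9.5 pools), Afp (up to 42.1 CPM, and at least 86 counts a pool) and Apoe (23.0 to 31.4 CPM) were still well above the value of 3 counts, while Apoc2 and Amn were at 0 in some pools and too low to be tested. Its summed level was 170, 151 and 160 CPM in Oct4 E9.5 induced pools and 149, 153 and 140 CPM in controls. Of 8 genes tested there, 2 rose and none fell, beside 4.69% and 4.61% of all 13957 genes. These 2 were also the only genes without overlap, a separation upwards that 15% of all genes showed. Apoa1 had 2.12, 3.60 and 3.02 CPM in induced pools, from 22, 17 and 25 counts, against 1.56, 0.988 and 0.647 CPM in controls, from 14, 14 and 5 counts. Its log2 fold change was 1.37 ± 0.35 (adjusted p = 0.017). Rbp4 had 6.92, 10.4 and 11.5 CPM in induced pools and 5.91, 5.22 and 3.11 CPM in controls (0.95 ± 0.24, adjusted p = 0.0196). Apoa1 thus rests on few reads, and each of these calls was lost in 3 of the 6 fits without a pool. For Apoa1 the adjusted p was 0.0737 without induced pool 4, 0.0872 without induced pool 5 and 0.101 without control pool 2. For Rbp4 it was 0.082, 0.113 and 0.0781 without the same pools, and in 1 model over all 22 libraries neither passed. Afp was at 31.9, 24.0 and 42.1 CPM in induced pools and 39.7, 31.0 and 26.3 CPM in controls, an overlap that was typical of the other genes. Log2 fold changes of Apoe, Afp, Ttr, Hnf4a, Lrp2 and Cubn lay between -0.05 and 0.17, with SEs of 0.08 to 0.33. Of the companion genes 22 were tested, of which 4 rose and 1 fell. Markers of other cells moved in the same pools. Embryonic red cell genes summed to 6231 to 7595 CPM in Oct4 E9.5 induced pools and 4431 to 5695 CPM in controls (1 of 5 higher, Klf1). Trophoblast genes summed to 118 to 131 CPM in induced pools and 80.6 to 93.4 CPM in controls (2 of 3 tested higher, Hand1 and Ets2), with the marker Tpbpa at 0 in both groups. Gut tube and liver bud genes summed to 28.8 to 37.6 CPM in induced pools and 50.8 to 59.1 CPM in controls (2 of 5 tested lower, Nkx2-1 and Onecut2). Their part in the rise of Apoa1 and Rbp4 was not tested.

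In the Nanog line at E9.5 the summed level was 126, 134 and 131 CPM in induced pools and 146 and 124 CPM in controls. Of 5 genes tested, Lrp2 fell and none rose, where 13% of all 13305 genes fell and 15.4% rose, so 1 call is near that background. Lrp2 was at 64.9, 59.8 and 61.0 CPM in induced pools and 72.8 and 68.1 CPM in controls. The groups did not overlap, a separation downwards that 22.8% of all genes showed. The log2 fold change was only -0.22 ± 0.077 (adjusted p = 0.0394 in edgeR). The call was kept in 1 of 5 fits without a pool, that without induced pool 1. Apoe was at 28.5, 29.3 and 28.0 CPM in induced pools and 23.0 and 24.6 CPM in controls (0.23 ± 0.10, adjusted p = 0.104 in edgeR). Its groups did not overlap either, a separation upwards that 31.1% of all genes showed. Of 19 companion genes tested, 2 rose and none fell. Of the 10 genes, none of the 8 tested passed in the difference between the lines at E9.5 (edgeR), beside 13.5% of 14604 genes. None of the 8 had an unadjusted p under 0.05, beside 4106 of all genes tested. Embryonic red cell genes, as another product of the yolk sac, summed to 1332 to 1818 CPM in Nanog E9.5 induced pools and 4656 to 6183 CPM in controls.

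Between the stages, the set fell steeply in pools without doxycycline. All 10 genes were lower at E9.5 than at E7.5 in the controls of both lines, where 37.1% of 15770 genes fell in the Oct4 line and 32% of 14872 in the Nanog line. The median log2 fold change of the 10 was -6.99 in the Oct4 line and -6.87 in the Nanog line. The share of yolk sac tissue in a pool and the RNA per cell cannot be told apart here either. The libraries of the stages also differed, with gene models under 80 nucleotides at 0.634 to 1.70 CPM in E9.5 controls and 29.0 to 51.9 CPM in E7.5 controls, and mitochondrial shares of 2.38% to 2.88% and 3.30% to 5.51%. Stage and this library difference cannot be told apart. All 10 genes were still called lower in both lines with those features left out of the table, but that cannot show whether the library difference reaches other genes.

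The genes fell to very different extents. Lrp2 fell least, to 72.9 ± 9.19 CPM in Oct4 E9.5 controls, against 239 ± 21.5 CPM in E7.5 controls (log2 fold change -1.91 ± 0.11, adjusted p = 2.14e-07), and by -1.99 ± 0.08 in the Nanog line. Afp came next, at 32.3 ± 6.80 CPM in Oct4 E9.5 controls and 278 ± 35.2 CPM in E7.5 controls (-3.30 ± 0.17, adjusted p = 2.52e-06). In the Nanog line Afp changed by -2.75 ± 0.26 and its call was lost without either E7.5 control pool (adjusted p 0.0591 and 0.0647 in edgeR). Apoe stood at 28.1 ± 2.05 CPM in Oct4 E9.5 controls and 1335 ± 156 CPM in E7.5 controls (-5.77). Hnf4a (-6.25), Rbp4 (-6.77) and Ttr (-7.22) fell further in the Oct4 line. Cubn was at 3.01 ± 0.501 CPM in Oct4 E9.5 controls and 910 ± 151 CPM in E7.5 controls (-8.47), a far lower level than that of its partner Lrp2. Apoa1 had 33 counts in all over the 3 Oct4 E9.5 controls, against 78973 over the E7.5 controls (-9.55). Amn had 8 and Apoc2 6 counts over the same E9.5 pools, with 0 in 1 pool each, so their fitted values of -9.77 and -11.38 depend on few reads. Afp, Apoe and Lrp2 were the highest of the 10 per kilobase at E9.5, with 15.5 ± 3.26, 14.2 ± 1.04 and 4.37 ± 0.55 CPM per kb in the Oct4 line controls. Of the companion genes 31 of 35 tested fell in the Oct4 line and 32 of 35 in the Nanog line, with 2 higher in each. Gut tube and liver bud genes rose in 4 of 6 cases in both lines, beside 36.5% of all genes in the Oct4 line and 31.8% in the Nanog line. Of the same list, 1 gene fell in the Oct4 line and 2 in the Nanog line.

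**Figure D5:**
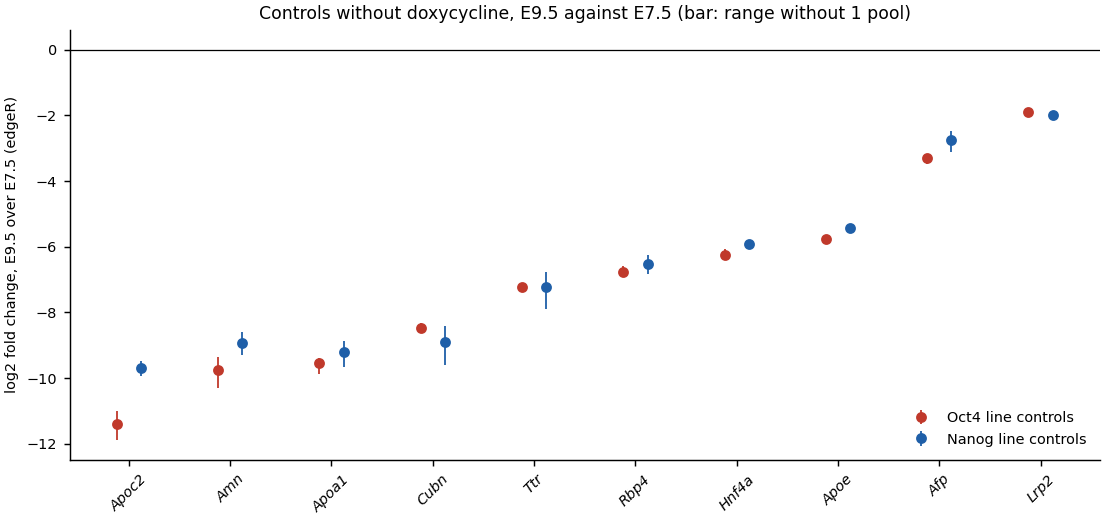
Log2 fold change of E9.5 over E7.5 controls without doxycycline, for the 10 genes in both lines; points are edgeR estimates and bars span the values obtained with each control pool left out in turn. In the Oct4 line Apoc2, Amn, Apoa1 and Cubn fell by more than 8 on the log2 scale, with few E9.5 reads for Apoc2 and Amn. Afp and Lrp2 fell least in both lines.

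The response itself changed between the stages for some genes. Nanog's effect at E9.5 minus that at E7.5 was above 0 for all 10 genes, with a median of 0.95. It passed for Lrp2 (1.21 ± 0.19, adjusted p = 0.00205) and Apoe (0.76 ± 0.15, adjusted p = 0.00483), beside 8.02% of 14897 genes called higher, and both held without any 1 of the 10 pools. For Oct4 the difference passed for Rbp4 alone (1.37 ± 0.36, adjusted p = 0.046), beside 4.84% of 16359 genes, and it held in 2 of 12 fits without a pool. Library differences run across these groups too. Gene models under 80 nucleotides summed to 0.660 to 2.02 CPM in the Nanog E9.5 pools and 0.575 to 1.13 CPM in the Nanog E7.5 induced pools, so that on this measure the Nanog E7.5 controls, at 31.3 to 36.8 CPM, were the group apart. Their part in the Nanog values was not tested beyond leaving those features and mitochondrial genes out of the table, where 2 genes were again called.

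Over all 22 pools, Apoe followed the mean profile of the 10 genes most closely, and Lrp2 and Afp, the genes that fell least between the stages, followed it least. Likeness was taken as the root mean square difference of centred log2(CPM + 1) values, which was 0.270 for Apoe, 1.40 for Afp and 2.18 for Lrp2, against a median of 2.89 over the 10436 genes that averaged 5 CPM or more. The gene outside the set with the most similar profile was Ctsh, a lysosomal protease (0.201), and the next was Tdh (0.206). Others among the 8 closest were Slc13a4, Slc39a5, Car7, Slc7a8 and Cldn2 (0.32 to 0.36). Ctsh had 86.9 CPM on average in Nanog E7.5 induced pools and 167 CPM in controls, and Tdh 40.4 and 88.5 CPM. In Oct4 E7.5 the means were close, at 236 CPM in induced pools and 236 CPM in controls for Ctsh, and 111 and 113 CPM for Tdh. Both genes were picked for likeness over all 22 pools, these groups included, so their values follow partly from that choice.

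On the NCBIM37 assembly, which the deposited counts follow, Apoe (chr7:20281458-20284515) and Apoc2 (chr7:20256928-20266772) share 1 apolipoprotein cluster on the minus strand, and Apoa1 (chr9:46036663-46038549) lies in another with Apoa4 and Apoc3. Lrp2 (chr2:69262397-69424122), Cubn (chr2:13197965-13413551) and Hnf4a (chr2:163332544-163398646) lie far apart on chromosome 2. Afp (chr5:90919740-90937933) neighbours Alb, which encodes albumin and reached at most 1.63 CPM in any pool. Rbp4 is at chr19:38191110-38199811, Amn at chr12:112509322-112514637 and Ttr at chr18:20823751-20832825. Antisense models overlap Ttr, Hnf4a and Cubn, and whether libraries kept strand is not given in the sources used here. Those models reached at most 0.411 CPM.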

How the data were processed

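RNA was sequenced from 22 pools of whole embryos. The deposited values are expected counts per gene, which RSEM (version 1.17) estimates and which need not be whole; the submitters' processing notes also name cutadapt, Picard, limma and the NCBIM37 genome. The aligner and whether libraries kept strand are not given in the sources used here. Expected counts, as the authors deposited them, were rounded to whole numbers for testing. CPM is the counts-per-million scale, relative to a library's total, and totals ran from 4716147 to 42323659. Floors of 3 counts cover counting error only.

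Each comparison was fitted on its own pools with edgeR 4.0.16 in R 4.3.3 (quasi-likelihood test, TMM factors, filterByExpr with a minimum of 10 counts and 15 in all), with Benjamini-Hochberg adjustment over all genes tested and a threshold of 0.05. Standard errors are the log2 fold change over the root of the F statistic. The fit was tested on simulated data. Alternatives were DESeq2 size factors, no filter, DESeq2 1.42.0, limma-voom 3.58.1, 1 model over all libraries, a table without mitochondrial genes and gene models under 80 nucleotides, a replicate block, the controls of the Oct4 line, and each pool left out.

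Groups came from the sample labels. The 10 genes and the companion lists were chosen with earlier results of these data known, so counts are descriptions beside the share of all genes called. Trf and Dab2, with 2 gene models each, were left out of the lists. All 10 genes are named; of the companion lists, the genes named are called ones with the lowest adjusted p per list, at most 3 per list and comparison, and a few further ones, chosen after their values were seen. A few genes that the rule selects are not reported here, though list counts include them. Sequences and motif windows are from RefSeq (GRCm38.p6), gene positions from the NCBIM37 annotation.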

Additional observations from a re-analysis of the deposited data

Results flagged for a closer look

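The effect of induction differed between the stages for 3 of the 10 genes, by a test of the difference itself in edgeR (effect at E9.5 minus effect at E7.5, on the log2 scale). Of all genes tested, 8.02% were called higher in the Nanog difference and 4.84% in the Oct4 difference. For Nanog the difference was 1.21 for Lrp2, whose log2 fold changes were -0.22 at E9.5 and -1.45 at E7.5. For Apoe it was 0.76, with 0.23 at E9.5 and -0.55 at E7.5. For Oct4 the difference was 1.37 for Rbp4, with 0.95 at E9.5 and -0.44 at E7.5. The Rbp4 call held in 2 of 12 fits without a pool. The stages share no pools, but they differ in the start of doxycycline (E6.5 and E4.5), which cannot be told apart from the stage. The library difference between Nanog E7.5 induced and control pools also enters the Nanog values, and its part in them was not tested.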

How the results depend on the processing

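Over all alternatives, 782 of the values compared kept their direction and side of the threshold, 54 lost and 14 gained a call and 21 reversed. The difference between the lines at E9.5 and uncalled genes of both stage differences were not among them. Of the 782, 130 and 108 were steep stage changes in Oct4 and Nanog line controls. The causes were not tested, beyond that leaving out a pool leaves fewer samples. Called genes numbered 0 to 2 in Oct4 E7.5, 1 to 8 in Nanog E7.5, 0 to 2 in Oct4 E9.5, 0 to 1 in Nanog E9.5 and 0 to 2 in the Oct4 stage difference when each pool was left out. With DESeq2 the counts were 1 in Oct4 E9.5, 0 in Nanog E9.5, 2 in Nanog minus Oct4 at E7.5 and 3 in the Oct4 stage difference. With 1 model over all libraries they were 0 in both E9.5 comparisons and 1 in Nanog minus Oct4 at E7.5, which was also 1 without a filter. The Oct4 stage difference had 0 with DESeq2 size factors, without a filter and with limma-voom. The replicate block gave 2 calls in Oct4 E7.5, where it added Rbp4 (-0.46, adjusted p = 0.0168 in edgeR) to Lrp2, and 0 in Nanog E9.5. Of all 16071 genes tested in Oct4 E7.5, 816 were called lower with the block and 629 without it. Same-numbered pools correlated at 0.289, 0.323 and 0.0476 there, each pool best with its own number. The labels do not say whether the numbers pair the pools, and the main fits take them as unpaired.

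Without a pool, log2 fold changes that crossed 0 ran, in Oct4 E7.5, from -0.352 to 0.0238 (Apoc2), -0.202 to 0.0678 (Apoe), -0.0932 to 0.0977 (Afp), -0.24 to 0.00398 (Cubn) and -0.194 to 0.234 (Amn). In Oct4 E9.5 they ran from -0.00253 to 0.115 (Apoe), -0.169 to 0.195 (Afp), -0.141 to 0.0767 (Ttr), -0.0197 to 0.306 (Hnf4a), -0.0822 to 0.181 (Lrp2) and -0.113 to 0.552 (Cubn), and in Nanog E9.5 from -0.468 to 0.176 (Afp) and -0.0615 to 1.12 (Cubn). In Nanog E9.5 the block gave 0.055 for Afp, and the Oct4 line's controls gave -0.284 for Cubn. None of these genes was called. Depth limits the E9.5 values, where several genes had under 10 counts a pool.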
